A study of Homo sapiens with 26 samples.

Results

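The mitochondrial respiratory chain and ATP synthase together form complexes I to V of oxidative phosphorylation. With few exceptions, the 79 genes described here encode their protein subunits. They were chosen by name from the 18417 genes measured: symbols starting with NDUFA, NDUFB, NDUFC, NDUFS or NDUFV and a number for complex I, SDHA, SDHB, SDHC and SDHD for complex II, CYC1 and UQCR for complex III, COX4I and COX5 to COX8 for complex IV, and ATP5 for complex V. No measured value entered the choice of names, although earlier results of these data were known. For the 7 genes with 2 rows, the row with the higher mean was kept. The rule found 82 symbols on array rows that carry exactly 1 symbol, of which 2 pseudogenes and 1 noncoding divergent transcript were left out. The 79 genes comprise 33 of complex I, 3 of complex II (SDHA, SDHC and SDHD), 8 of complex III, 17 of complex IV and 18 of complex V. By name, complex V thus counts ATP5IF1, an inhibitor of ATP synthase. Complex IV counts COX7A2L, which is linked to joint assemblies of complexes III and IV.

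Complexes I and II feed electrons from NADH and succinate into coenzyme Q, complex III passes them on to cytochrome c, and complex IV hands them to oxygen. Complexes I, III and IV pump protons across the inner mitochondrial membrane, and complex V lets the protons flow back to make ATP. All genes of the set are nuclear, so their products are made in the cytosol and imported, and they have to be matched with the few subunits encoded by mitochondrial DNA. Pluripotent and embryonal carcinoma cells are known for relying strongly on glycolysis while keeping a working respiratory chain.

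The cells were NCCIT, an established human embryonal carcinoma line, transfected with small interfering RNA (siRNA) against the DNA methyltransferases DNMT1, DNMT3A and DNMT3B or their cofactor DNMT3L. The study compared single and combined depletion of these proteins. There were 13 groups of 2 Affymetrix Human Gene 1.0 ST arrays each. siNTC-1 and siNTC-2 received control siRNA. siDNMT1, siDNMT3A, siDNMT3B and siDNMT3L received siRNA against 1 transcript, siD1+3A, siD1+3B, 3A+3B, 3A+3L and 3B+3L against a pair, and siD1+3A+3B and 3A+3B+3L against 3 of them. All groups share the cell line, the transfection and the medium, and the time from transfection to harvest is not given in the sources used here. Whether the 2 arrays of a group stem from different cultures is not stated in the labels. The p-values then measure the spread between arrays only, and that spread may be technical. Precision is limited by having 2 arrays a group.

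The embryonal carcinoma markers SOX2, LIN28A, L1TD1 and DPPA4 lay between the 97.4th and the 99.1st percentile of mean expression over all genes, and the fibroblast markers COL1A1, COL1A2, COL3A1, DCN and LUM at or below the 43.8th. DNMT1 siRNA left 37.4% to 59.5% of the DNMT1 level of a control group. The ranges for the other targets were 58.0% to 78.5% for DNMT3A, 50.3% to 99.4% for DNMT3B and 68.3% to 80.5% for DNMT3L. The targeted gene was lower than in each control in every depletion group (adjusted p of limma at most 0.0498), with the exception of 3A+3B+3L, where DNMT3B stood at 99.4% of siNTC-2 (adjusted p of limma = 0.951). DNMT3B was less depleted where an siRNA was added to a pair. Relative to siNTC-1 it stood at 58.6% for 3B+3L and 80.3% once DNMT3A siRNA was added. For siD1+3B the same addition went with a level of 70.3%, beside 61.7% without it. For 3A+3B it was 59.3%, beside 80.3% with DNMT3L siRNA added and 70.3% with DNMT1 siRNA added. DNMT3A stood at 59.9% of siNTC-1 in siDNMT3A, 58.0% in siD1+3A and 60.8% in 3A+3L. Additions to a pair thus differ in more than the added target. Over all genes outside the set, principal component 1 explained 49.5% of the variance and put the 8 arrays of siNTC-1, siDNMT1, siDNMT3B and siDNMT3L on one side and the other 18 arrays, with siNTC-2, on the other. No label names a batch that goes with this split. A difference between groups on opposite sides cannot be told apart from this split. On the side of siNTC-2 the groups also spread along the component, from -20.2 and -17.6 in 3B+3L to -3.81 and -3.37 in siD1+3B. siNTC-2 lay at -18.1 and -18.1 and siNTC-1 at 25.9 and 24.2. A difference between groups at different places on the component cannot be told apart from that place either. A gene was called in a depletion only where it passed the threshold (adjusted p under 0.05) against siNTC-1 and against siNTC-2 in the same direction. The value given for such a call is the smaller of the 2 differences. Differences are on the log2 scale of the deposited values, ± the standard error of the limma fit, and adjusted p-values are Benjamini-Hochberg values over all 18417 genes.

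Between the control siRNA groups, COX6C, NDUFA1 and COX7A2 were the most reduced respiratory chain genes in siNTC-2 and NDUFS4, COX8A and COX6B1 the most raised. Of the 79 genes, 56 passed the threshold, 14 higher and 42 lower in siNTC-2, which is 70.9% of the set beside 44.7% of all genes, of which 20.5% were lower. The standard deviation between arrays of the same group had a median of 0.060 in the set and 0.083 over all genes. Smaller differences can therefore pass in the set. The shares set beside all genes, here and below, thus do not compare the size of differences. The median difference was -0.16 over the set and -0.02 over all genes. In complex I 7 genes were higher and 17 lower of 33, in complex II 1 and 1 of 3, in complex III 1 and 4 of 8, in complex IV 3 and 9 of 17, and in complex V 2 and 11 of 18. Without any 1 of the 4 control arrays, between 49 and 54 genes passed.

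Other comparisons across the split of the arrays gave similar counts. Against siNTC-2, 37 genes were higher and 18 lower in siDNMT1 (69.6% of the set beside 41.4% of all genes), 35 and 17 in siDNMT3B (65.8% beside 44.2%) and 37 and 20 in siDNMT3L (72.2% beside 44.4%). Against siNTC-1, 14 were higher and 35 lower in siDNMT3A (62% beside 45.5%), 12 and 36 in 3A+3B (60.8% beside 44.2%), 13 and 37 in 3B+3L (63.3% beside 47.9%), 14 and 32 in siD1+3A+3B (58.2% beside 39.7%) and 15 and 31 in 3A+3B+3L (58.2% beside 39.2%). They were 24 and 29 in siD1+3A (67.1% beside 41.6%), 19 and 29 in 3A+3L (60.8% beside 41%) and 26 and 24 in siD1+3B (63.3% beside 39.5%). The side with more calls turned in siD1+3A without siNTC-1 replicate 2 (24 and 23) and in siD1+3B without siNTC-1 replicate 1 (19 and 20). These comparisons share the control arrays, and depletion and split cannot be told apart in them.

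COX6C encodes a small nuclear subunit of cytochrome c oxidase. Its log2 values were 9.62 and 9.47 in siNTC-1 and 7.85 and 7.81 in siNTC-2. siNTC-2 thus stood at 30.5% of siNTC-1, a difference of -1.71 ± 0.05 (n = 2 arrays a group, adjusted p of limma = 1.99e-13). All 22 arrays of the depletion groups lay between the control groups: 9.01 to 9.21 in siDNMT1, siDNMT3B and siDNMT3L, and 8.22 to 8.69 in the other 8 depletions. Neither of these ranges overlapped with either control.

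NDUFA1, an accessory subunit of complex I encoded on the X chromosome, had values of 9.00 and 8.97 in siNTC-1 and 7.55 and 7.69 in siNTC-2. The difference was -1.36 ± 0.09 (adjusted p of limma = 1.05e-09). The arrays of siDNMT1, siDNMT3B and siDNMT3L, at 8.76 to 9.18, sat around siNTC-1, and those of the other depletions reached from 7.59 to 8.26. In COX7A2, the broadly expressed form of another cytochrome c oxidase subunit, the arrays read 10.37 and 10.37 in siNTC-1 and 9.43 and 9.45 in siNTC-2, a difference of -0.93 ± 0.05 (adjusted p of limma = 6.13e-11). The siNTC-2 arrays were the lowest of all 26 for COX7A2, since the other 24 lay between 9.93 and 10.48. Among complex V genes ATP5MG, a subunit of the membrane part of ATP synthase, fell from 11.89 and 11.66 to 10.99 and 11.06 (-0.75 ± 0.06, adjusted p of limma = 1.09e-08).

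NDUFS4, a subunit needed for a stable complex I, rose most. Its arrays read 9.90 and 9.98 in siNTC-1 and 10.83 and 10.76 in siNTC-2, a difference of 0.86 ± 0.07 (adjusted p of limma = 2.42e-08). This rests on the brighter of the gene's 2 rows. The other row, with a mean of 5.79, differed by -0.06 (adjusted p of limma = 0.599), so the rows of NDUFS4 disagree. Both rows of ATP5MK, COX6A1, NDUFV2, SDHC and SDHD moved the same way between the controls, although the dimmer row of SDHC did not pass (adjusted p of limma = 0.105). The rows of SDHC correlated with r = 0.40 over the arrays. The rows of NDUFB4 had the same mean and difference (r = 1) and give no second reading. All rows were assigned to genes by the platform annotation, and the place in the genome that each row reads was not checked.

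COX8A, the broadly expressed form of the smallest cytochrome c oxidase subunit, had 11.39 and 11.50 in siNTC-1 and 12.06 and 12.05 in siNTC-2, a difference of 0.61 ± 0.06 (adjusted p of limma = 9.45e-08). COX6B1, a subunit that faces the intermembrane space, read 11.24 and 11.16 against 11.74 and 11.77, a difference of 0.56 ± 0.04 (adjusted p of limma = 1.5e-08). CYC1, the cytochrome c1 subunit of complex III, read 8.86 and 9.00 against 9.42 and 9.51, a difference of 0.54 ± 0.08 (adjusted p of limma = 1.54e-05). In each of these genes all arrays of siDNMT1, siDNMT3B and siDNMT3L lay below both siNTC-2 arrays. The 8 genes named for the control comparison kept their call without any 1 of the 4 arrays.

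**Figure D1:**
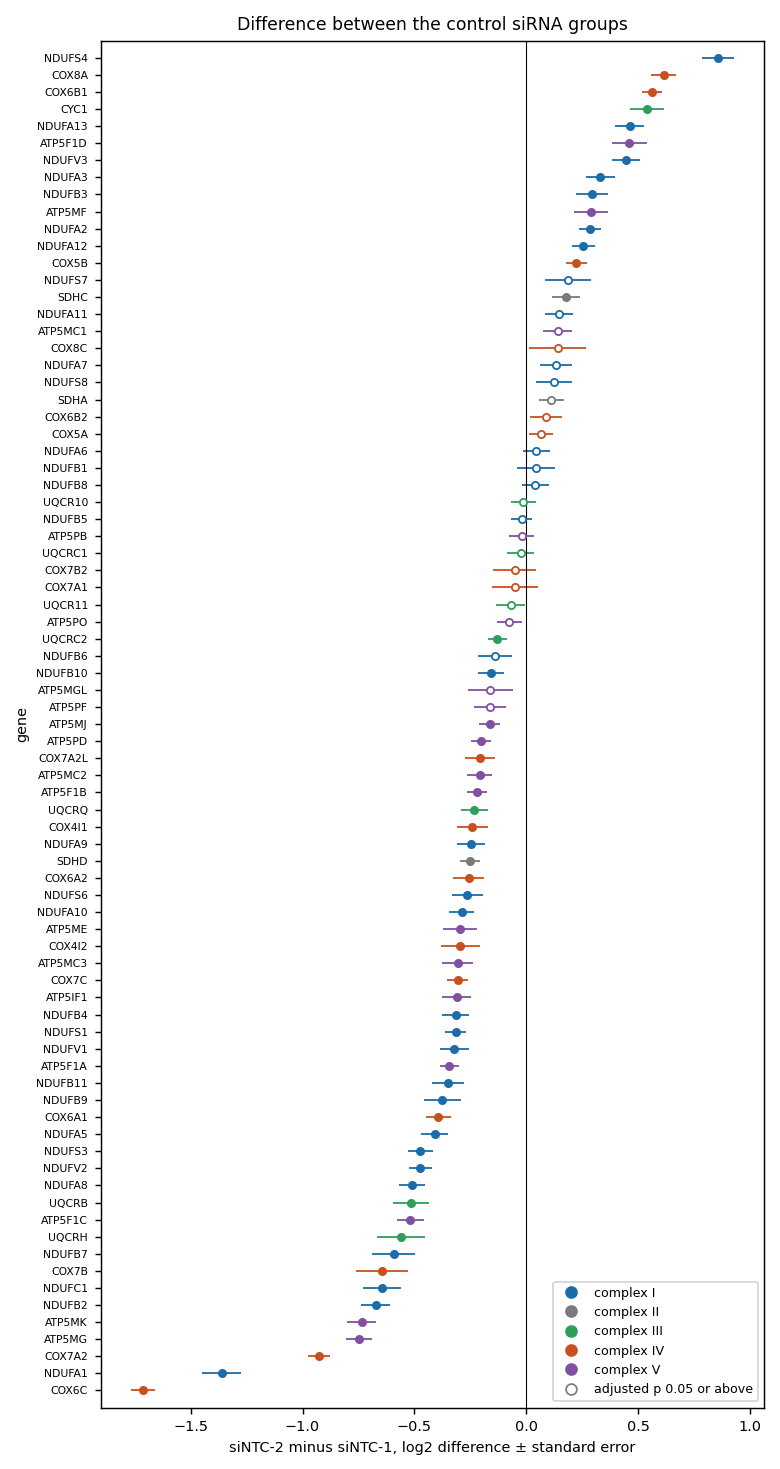
Difference in log2 expression between siNTC-2 and siNTC-1 (x axis, with the standard error of the fit) for each of the 79 respiratory chain genes (y axis), coloured by complex, with open points for adjusted p of 0.05 or above. COX6C at -1.71 and NDUFA1 at -1.36 stand apart at the low end, and NDUFS4 at 0.86 is highest.

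Subunits of the same complex therefore moved in opposite directions between the controls. In complex IV, COX6C and COX7A2 fell while COX8A and COX6B1 rose, and in complex I NDUFA1 fell while NDUFS4 rose. Over the 13 group means, the median Pearson correlation between pairs of the 79 genes was 0.18, and 58.7% of the pairs were positive. These points share the split of the arrays described above.

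The promoters of the genes were read to show what sequence surrounds genes that moved in opposite ways. RefSeq promoter windows (GRCh38.p14, 250 bases before to 50 after the start) matched 66 of the 79 genes. NRF1, GABP (an ETS factor) and YY1 are known regulators of respiratory chain promoters. On either strand, the NRF1 motif, a palindrome whose letters stand in capitals in the ATP5F1C sequence below, was found in 4 of the 66 windows (6.06%, beside 1.36% of all 27305 RefSeq promoters), the ETS motif CCGGAAG in 19 (28.8%, beside 10.7%) and the YY1 motif AAGATGGC in 10 (15.2%, beside 3.03%). Among the 14237 promoters of genes on the array the shares were 1.8%, 14.6% and 4.07%. No window had overlapping motifs, and 35 held none of the 3. The 4 genes with the NRF1 motif were NDUFA8, NDUFB4, SDHD and ATP5F1C. Of the 8 matched genes that were lowest in siNTC-2 against siNTC-1, 4 held the ETS motif, 0 the YY1 motif and 0 the NRF1 motif, and of the 8 highest, 3 held the ETS motif, 2 the YY1 motif and 0 the NRF1 motif. The 150 bases before the start follow for a gene that fell (NDUFA1), one that rose (COX8A), one with the NRF1 motif (ATP5F1C) and the gene most often higher in the depletions (UQCR10). Capitals mark a motif, which in NDUFA1 and COX8A is the ETS motif read on the opposite strand.
NDUFA1, chrX:119871682-119871831, plus strand: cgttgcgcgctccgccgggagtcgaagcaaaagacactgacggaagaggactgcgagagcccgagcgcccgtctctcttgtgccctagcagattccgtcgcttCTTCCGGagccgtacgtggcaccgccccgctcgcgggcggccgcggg
COX8A, chr11:63974470-63974619, plus strand: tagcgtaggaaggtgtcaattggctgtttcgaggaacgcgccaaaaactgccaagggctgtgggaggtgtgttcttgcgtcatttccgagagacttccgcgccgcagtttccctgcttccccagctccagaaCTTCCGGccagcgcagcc
ATP5F1C, chr10:7788027-7788176, plus strand: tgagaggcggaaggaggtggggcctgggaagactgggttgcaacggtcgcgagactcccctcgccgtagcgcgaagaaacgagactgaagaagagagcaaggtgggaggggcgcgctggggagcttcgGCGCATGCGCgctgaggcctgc
UQCR10, chr22:29767219-29767368, plus strand: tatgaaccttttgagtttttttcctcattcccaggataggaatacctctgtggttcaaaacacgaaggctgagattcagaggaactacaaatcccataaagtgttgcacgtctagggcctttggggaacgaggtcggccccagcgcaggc
The printed stretches of NDUFA1 and COX8A both hold the ETS motif, and that of UQCR10 holds none of the 3 motifs. The matched gene that rose most, NDUFS4, held the YY1 motif and no ETS motif in its window. The printed stretches are examples, and the part of the motifs in the differences was not tested. Promoter GC content and the control difference correlated with r = 0.0651 over the 66 genes and 0.114 over 14237 genes, given as a description.

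Other mitochondrial genes also differed between the controls, and several lists leaned the same way as the set. Of all genes, 44.7% were called in this comparison and 20.5% were lower. The assembly factors of complexes IV and V and the electron carriers with coenzyme Q synthesis had shares near these. Of 74 mitochondrial ribosomal protein genes, 12 were higher and 39 lower in siNTC-2, and of 17 complex I assembly factors 3 were higher and 10 lower. The counts higher and lower were 4 and 10 of 21 for mitochondrial protein import, 3 and 8 of 16 for the tricarboxylic acid cycle, 3 and 7 of 17 for maintenance and transcription of mitochondrial DNA, and 5 and 6 of 14 for regulators of mitochondrial biogenesis. For assembly factors they were 1 and 1 of 3 for complex II, 3 and 2 of 6 for complex III, 4 and 4 of 17 for complex IV and 1 and 1 of 4 for complex V. Electron carriers and coenzyme Q synthesis had 3 and 2 of 12, and mitochondrial stress and quality control 6 and 5 of 14. Among the genes for mitochondrial DNA, TFAM, which packages and transcribes it, fell by 0.49 ± 0.05 on the log2 scale (adjusted p of limma = 1.96e-07) and TFB1M, which modifies the mitochondrial ribosomal RNA, rose by 0.88 ± 0.08 (adjusted p of limma = 1.56e-07).

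Of 20 targets of ATF4, the transcription factor of the integrated stress response, 18 rose and 1 fell in siNTC-2, with a median difference of 1.46. CHAC1, which degrades glutathione, was 11.6-fold higher (adjusted p of limma = 3.86e-13) and DDIT3, the stress factor CHOP, 3.11-fold higher (adjusted p of limma = 1.31e-12). The part of this response in the differences of the respiratory chain genes was not tested.

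**Figure D2:**
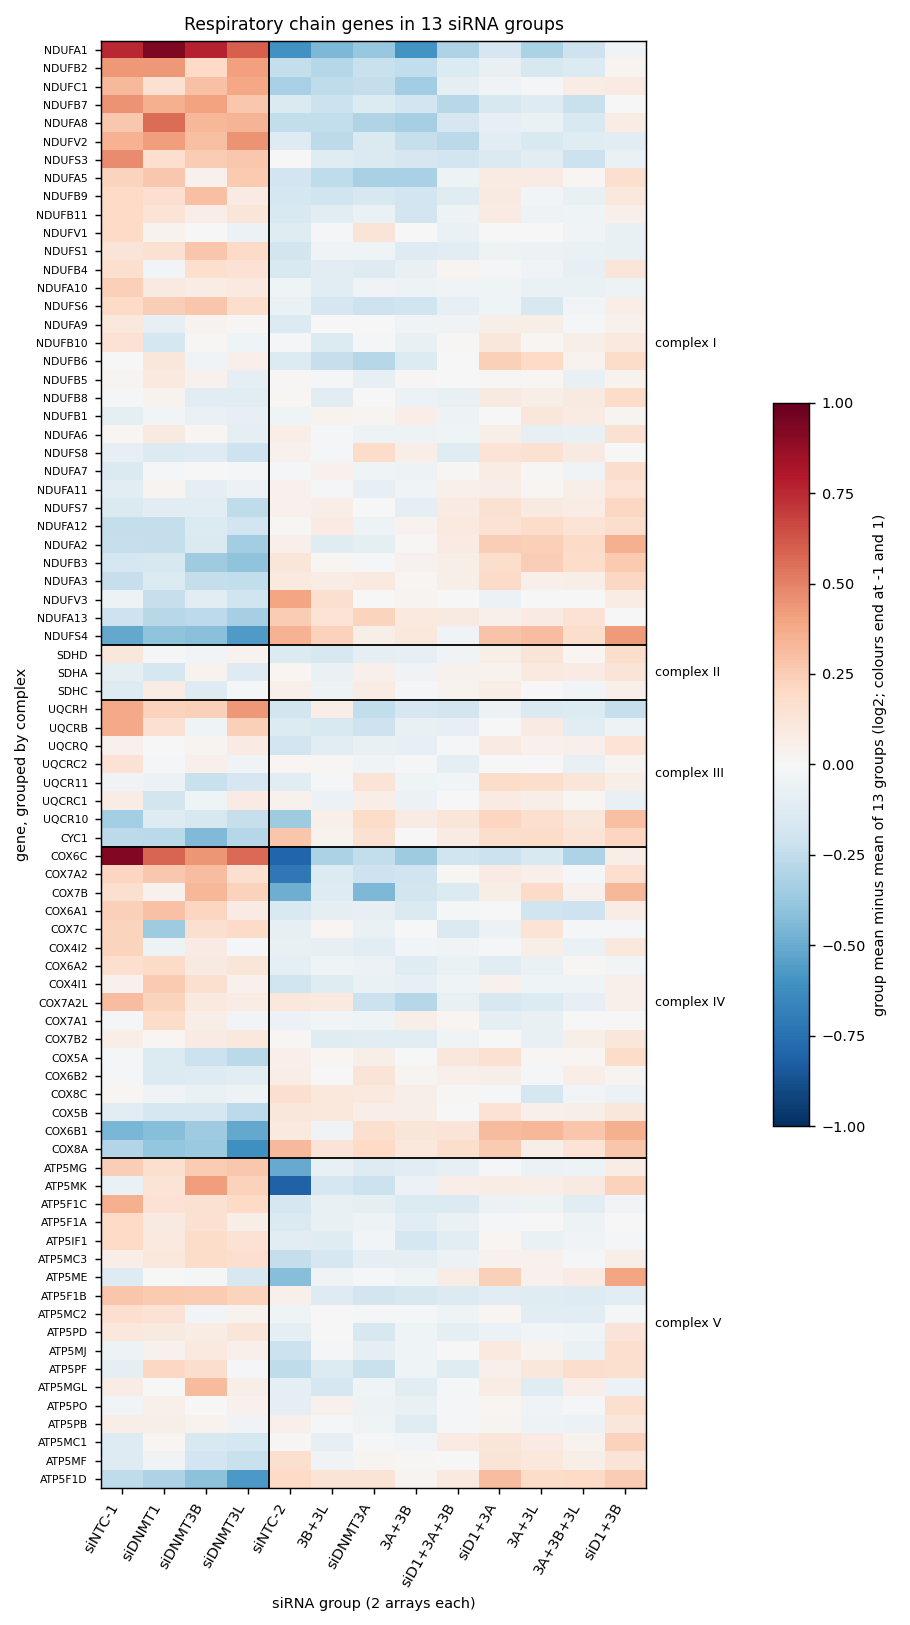
Group mean of each of the 79 genes (rows, by complex) minus its mean over the 13 groups (log2, colours ending at -1 and 1), with siRNA groups in columns and a vertical line at the split of the arrays. Rows that are red in siNTC-1, siDNMT1, siDNMT3B and siDNMT3L, such as NDUFA1 and COX6C, are blue in siNTC-2, and rows such as NDUFS4 and COX8A show the opposite.

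Over all 13 groups, the range of a gene's group means had a median of 0.458 in the set and 0.408 over all genes. It was above 0.5 in 31 of the 79 genes (39.2%, beside 35.8% of all genes) and above 1 in COX6C, NDUFA1, ATP5MK and COX7A2. The smallest ranges were 0.196 for NDUFB5, 0.203 for SDHC, 0.205 for NDUFB1, 0.235 for UQCRC2, 0.237 for COX7B2 and 0.24 for ATP5PB. UQCRC2 is a core protein of complex III and ATP5PB the peripheral stalk subunit b of ATP synthase.

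Against both controls, each depletion called few respiratory chain genes, and UQCR10 and ATP5F1B were called most often. Called genes of the set, higher and lower, were 5 and 3 in siDNMT1 (9.27% of all genes called in either direction), 2 and 2 in siDNMT3A (6.8%), 5 and 1 in siDNMT3B (12.1%), 1 and 5 in siDNMT3L (9.85%), 7 and 2 in siD1+3A (8.15%) and 10 and 1 in siD1+3B (8.68%). They were 2 and 2 in siD1+3A+3B (6.01%), 1 and 3 in 3A+3B (4.98%), 7 and 2 in 3A+3L (7.61%), 1 and 1 in 3B+3L (5.86%) and 5 and 2 in 3A+3B+3L (7.61%). Between 2.5% and 13.9% of the set was called, a share on both sides of the background. After quantile normalization the split was 1 and 3 in siDNMT3A, 5 and 2 in siDNMT3B and 6 and 3 in siD1+3A. In all, 52 of the 79 genes (65.8%) were called in no depletion, beside 68.4% of all genes. No gene of the set was called higher in one depletion and lower in another, which 413 of all 18417 genes were. The 11 comparisons share their 4 control arrays. Called in 5 or more depletions in 1 direction were 3 of the 79 genes, beside 1018 of all 18417 genes, so repeated calls were not particular to the set. The genes called most often were UQCR10 (higher in 10), ATP5F1B (lower in 8), ATP5PF (higher in 5), ATP5ME, ATP5MK, COX6B1 and NDUFA2 (each higher in 4) and COX7A2L (lower in 4). Of these calls, 8 for UQCR10, 3 each for ATP5F1B, ATP5MK and COX6B1, 2 for ATP5ME, 1 each for NDUFA2 and COX7A2L and 0 for ATP5PF held without any 1 of the arrays behind them.

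Single arrays changed several of these counts by more than 1.5 times. Calls higher and lower went from 5 and 3 in siDNMT1 to 2 and 3 without siNTC-1 replicate 1, 4 and 1 without siDNMT1 replicate 1 and 2 and 2 without siDNMT1 replicate 2. They went from 2 and 2 in siDNMT3A to 1 and 1 without siNTC-2 replicate 2, and from 5 and 1 in siDNMT3B to 2 and 1 or 3 and 0 without siNTC-1 replicate 1 or 2. In siD1+3A the 7 and 2 became 4 and 1 without its replicate 1, in siD1+3B the 10 and 1 became 7 and 0 without either of its arrays, and in siD1+3A+3B the 2 and 2 became 1 and 0 without its replicate 1 and 1 and 1 without its replicate 2. In 3A+3L the 7 and 2 became 4 and 1 without siNTC-2 replicate 2, 5 and 0 without its replicate 1 and 2 and 3 without its replicate 2. In 3A+3B+3L the 5 and 2 became 2 and 2 without its replicate 1, and in 3B+3L the 1 and 1 became 1 and 0 without either siNTC-2 array or its own replicate 2. The side with more calls thus turned in siDNMT1 and 3A+3L with 1 array. For this reason the genes named next are those whose call held without any 1 of the 6 arrays behind it, unless an array is named.

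**Figure D3:**
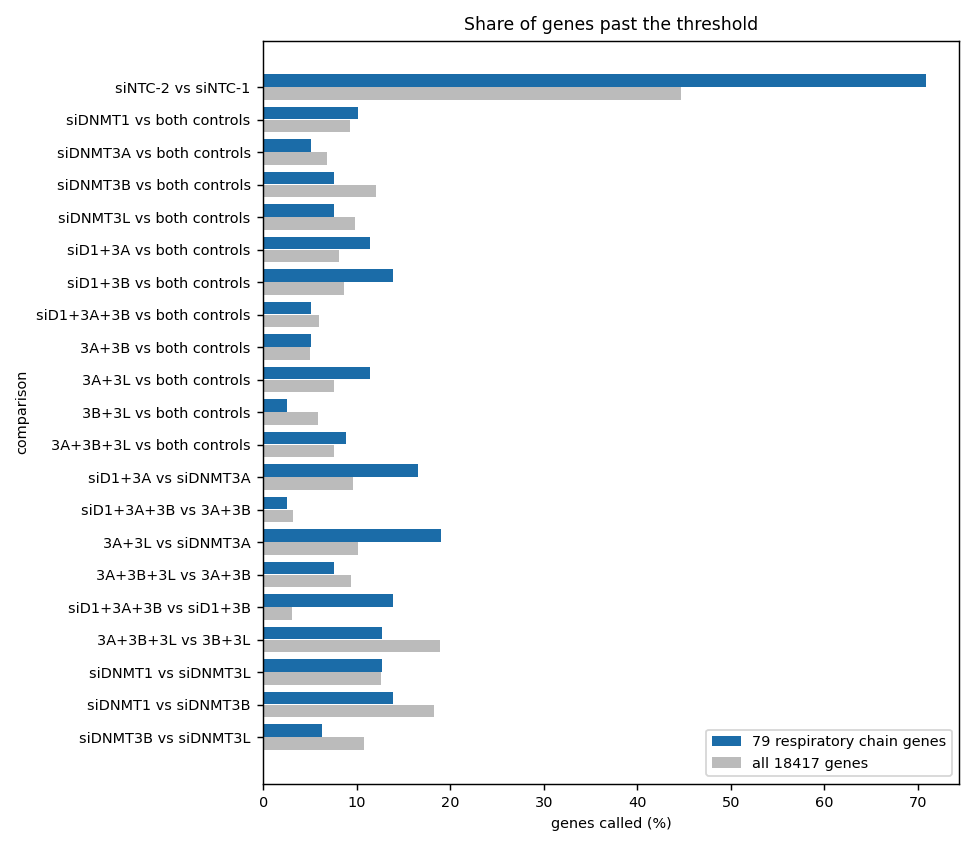
Share of the 79 respiratory chain genes (blue bars) and of all 18417 genes (grey bars) past the threshold, in percent (x axis), for each comparison (y axis). The siNTC-2 against siNTC-1 bars reach 70.9% and 44.7%, and in the depletions against both controls the blue bar lies on either side of the grey one.

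UQCR10 encodes a small subunit of complex III that holds the complex together. The control groups did not separate for it: siNTC-1 read 9.78 and 9.93 and siNTC-2 9.82 and 9.86, a difference of -0.01 ± 0.06 (adjusted p of limma = 0.854). All 22 arrays of the depletion groups were above all 4 control arrays. The 16 arrays of siDNMT3A and of the combined depletions lay between 10.20 and 10.51, and those of siDNMT1, siDNMT3B and siDNMT3L between 9.95 and 10.07. The depletion arrays thus also separate by side of the split, and the gap between these ranges cannot be told apart from it.

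UQCR10 was called higher in 10 of the 11 depletions. The smaller difference was largest in siD1+3B at 0.64 ± 0.06 (adjusted p of limma = 7.44e-08, 1.56-fold), where the arrays read 10.51 and 10.50. It was 0.56 in siD1+3A, 0.52 in siDNMT3A, 0.51 in 3A+3L, 0.47 in siD1+3A+3B, 0.45 in 3A+3B+3L, 0.43 in 3A+3B and 0.39 in 3B+3L. Without any 1 of the arrays these 8 differences stayed between 0.32 and 0.66. In siDNMT1 the smaller difference was 0.21 ± 0.06 (adjusted p of limma = 0.0113) and in siDNMT3B 0.18 ± 0.06 (adjusted p of limma = 0.0253). The siDNMT1 call was lost without siNTC-1 replicate 1 (0.14) or siDNMT1 replicate 1 (0.21), and the siDNMT3B call without replicate 1 of siNTC-1 (0.10) or of siNTC-2 (0.18) or replicate 2 of siDNMT3B (0.15). In siDNMT3L the differences were 0.11 against siNTC-1 and 0.12 against siNTC-2 (adjusted p of limma = 0.186 and 0.081).

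ATP5F1B, the catalytic beta subunit of ATP synthase, was called lower in 8 depletions, which were siDNMT3A and all the combined ones. Its arrays read 13.45 and 13.55 in siNTC-1, 13.29 and 13.28 in siNTC-2 and 13.02 to 13.14 in those 8 groups, so none of their 16 arrays reached a control array. In siDNMT1, siDNMT3B and siDNMT3L the arrays read 13.44 to 13.50, within or just below the range of siNTC-1 and above siNTC-2. The smaller difference, against siNTC-2, was -0.24 ± 0.04 in siDNMT3A (adjusted p of limma = 0.00108), -0.21 ± 0.04 in 3A+3B (0.00355) and -0.19 ± 0.04 in 3A+3B+3L (0.00471), and these calls held without any 1 array.

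The other ATP5F1B calls were smaller in size or lost with single arrays. In siD1+3A+3B the difference of -0.19 lost its call without that group's replicate 1 (-0.18), and in 3A+3L that of -0.18 without that group's replicate 1 (-0.15). In siD1+3A the difference of -0.16 lost it without siNTC-2 replicate 1 (-0.16) or its own replicate 1 (-0.15). In 3B+3L that of -0.18 lost it without siNTC-2 replicate 1 (-0.18), siNTC-2 replicate 2 (-0.19) or its own replicate 2 (-0.16). In siD1+3B that of -0.16 lost it without either siNTC-2 array (-0.15 and -0.16) or either of its own (-0.15 and -0.16).

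Most other called complex V genes were higher. Lower were ATP5F1D in siDNMT3L, given below, and ATP5PB in 3A+3B (smaller difference -0.17, adjusted p of limma = 0.0469). The ATP5PB call was lost when most single arrays were left out (-0.19 to -0.13). ATP5ME, the subunit e of the membrane part of ATP synthase, read 8.94 and 9.04 in siD1+3A and 9.21 and 9.08 in siD1+3B, against 8.60 and 8.64 in siNTC-1 and 8.26 and 8.40 in siNTC-2. Neither group overlapped with a control, and the smaller differences were 0.37 ± 0.08 (adjusted p of limma = 0.000797) and 0.52 ± 0.08 (adjusted p of limma = 2.67e-05). ATP5MK, a small subunit linked to dimers of ATP synthase, read 12.05 and 12.02 in siDNMT3B and 11.88 and 11.83 in siDNMT3L, against 11.52 and 11.58 in siNTC-1 and 10.89 and 10.75 in siNTC-2. Its smaller differences were 0.48 ± 0.06 in siDNMT3B (adjusted p of limma = 2.56e-05) and 0.30 ± 0.06 in siDNMT3L (adjusted p of limma = 0.00304). The larger ones, against siNTC-2, were 1.22 and 1.04, and the split of the arrays cannot be told apart from them.

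In siDNMT1, COX7C, a small subunit of cytochrome c oxidase, was lowest of all groups. Its arrays read 10.38 and 10.38, against 10.92 and 11.00 in siNTC-1 and 10.63 and 10.67 in siNTC-2, and the other 20 depletion arrays lay between 10.57 and 10.94. Its difference was -0.58 ± 0.05 from siNTC-1 (adjusted p of limma = 1.23e-07) and -0.28 ± 0.05 from siNTC-2 (adjusted p of limma = 0.000103). NDUFA8, an accessory subunit of complex I, was higher in siDNMT1, at 9.17 and 9.20 against 8.88 and 8.92 in siNTC-1 and 8.37 and 8.41 in siNTC-2 (smaller difference 0.29 ± 0.06, adjusted p of limma = 0.00175). Both siDNMT1 arrays were above every other array for NDUFA8.

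In siDNMT3L, 5 genes of the set were called lower, while 9.85% of all genes were called in either direction. They were ATP5F1D of complex V, NDUFB3 of complex I and 3 of the 17 genes of complex IV. ATP5F1D fell most (smaller difference -0.319, adjusted p of limma = 0.00808). Its call was lost without siNTC-1 replicate 1 (-0.29) or siDNMT3L replicate 1 (-0.24). COX8A read 11.15 and 11.10, below siNTC-1 at 11.39 and 11.50 and siNTC-2 at 12.06 and 12.05 (smaller difference -0.32 ± 0.06, adjusted p of limma = 0.000683). COX5A, a matrix-facing subunit, read 10.89 and 10.89, below siNTC-1 at 11.12 and 11.18 and siNTC-2 at 11.23 and 11.21 (smaller difference -0.26 ± 0.05, adjusted p of limma = 0.002). COX5B, another matrix-facing subunit, added after its values were seen, read 12.04 and 11.98, below siNTC-1 at 12.15 and 12.19 and siNTC-2 at 12.42 and 12.36 (smaller difference -0.16 ± 0.05, adjusted p of limma = 0.0248). The COX5B call was lost without siNTC-1 replicate 2 (-0.14) or siDNMT3L replicate 2 (-0.13).

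In 3A+3B, COX7A2L, which is linked to joint assemblies of complexes III and IV, read 9.22 and 9.26, below siNTC-1 at 9.78 and 9.88 and siNTC-2 at 9.56 and 9.69 (smaller difference -0.39 ± 0.07, adjusted p of limma = 0.000885).

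In siD1+3B, NDUFA2, an accessory subunit of complex I, read 11.74 and 11.74, above siNTC-1 at 11.12 and 11.18 and siNTC-2 at 11.45 and 11.42. The smaller difference was 0.30 ± 0.05 (adjusted p of limma = 0.000166). In 3A+3L, COX6B1 read 12.00 and 11.98, above siNTC-1 at 11.24 and 11.16 and siNTC-2 at 11.74 and 11.77 (smaller difference 0.23 ± 0.04, adjusted p of limma = 0.000892).

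**Figure D4:**
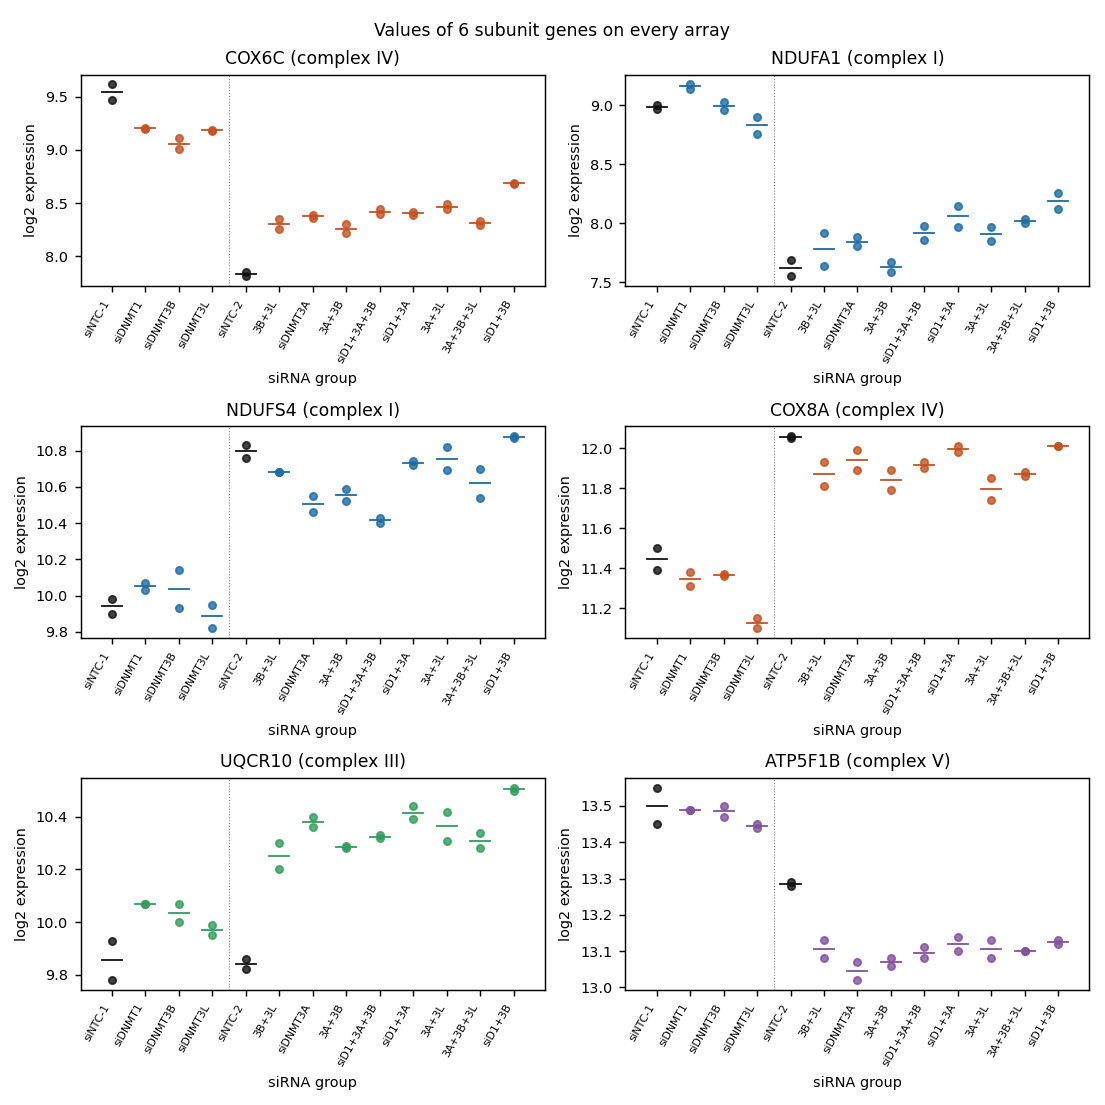
Log2 expression (y axis, a scale of its own in each panel, not starting at 0) of COX6C, NDUFA1, NDUFS4, COX8A, UQCR10 and ATP5F1B on each of the 26 arrays (points) by siRNA group (x axis), with group means as lines, controls in black and a dotted line at the split of the arrays. UQCR10 is higher on all 22 depletion arrays than on the 4 control arrays, whose groups do not separate. Its depletion arrays also go with the split, being higher to the right of the dotted line than to the left. The other 5 panels follow the split in the controls too.

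Set against siNTC-2 alone, which lies on their side of the split, several combined depletions had more genes higher than lower. In siD1+3A 27 genes were higher and 4 lower, which is 39.2% of the set beside 22.8% of all genes. In siD1+3B 31 were higher and 3 lower (43% beside 25%), in 3A+3L 24 and 4 (35.4% beside 22.4%) and in 3A+3B+3L 18 and 4 (27.8% beside 23.3%). The other groups on that side had fewer calls: siDNMT3A had 9 and 4 (16.5% beside 15.8%), siD1+3A+3B 9 and 4 (16.5% beside 18.6%), 3A+3B 7 and 7 (17.7% beside 12.6%) and 3B+3L 7 and 4 (13.9% beside 10.1%). The median difference from siNTC-2 was 0.13 in siD1+3B, 0.11 in siD1+3A, 0.07 in 3A+3L and 0.06 in 3A+3B+3L, beside a median over all genes between -0.01 and 0.00 in each. Single arrays moved 3 of these counts by more than 1.5 times. The 31 calls in siD1+3A became 20 without siNTC-2 replicate 1 and 18 without siD1+3A replicate 2. The 7 and 7 in 3A+3B became 6 and 3 without siNTC-2 replicate 2 or 3A+3B replicate 1, and the 7 and 4 in 3B+3L became 7 and 0 without siNTC-2 replicate 1 or 3B+3L replicate 2 and 6 and 0 without siNTC-2 replicate 2. By mean place on principal component 1, siD1+3A, siD1+3B, 3A+3L and 3A+3B+3L were the groups on the side of siNTC-2 nearest to siNTC-1. Depletion and place on the component cannot be told apart in these counts. ATP5ME, NDUFA2 and COX6B1, described above, were among the higher genes in siD1+3B.

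Set against siNTC-1, on their side, siDNMT1 had 6 higher and 11 lower (21.5% beside 19.8% of all genes), siDNMT3B 5 and 13 (22.8% beside 24.2%) and siDNMT3L 1 and 12 (16.5% beside 19.2%). With all arrays these shares were near the background. Single arrays moved all 3 counts by more than 1.5 times. The 6 and 11 in siDNMT1 became 2 and 7 without siNTC-1 replicate 1 or siDNMT1 replicate 2 and 4 and 6 without siDNMT1 replicate 1. The 5 and 13 in siDNMT3B became 2 and 9 without siNTC-1 replicate 1, 3 and 4 without siNTC-1 replicate 2, 4 and 3 without siDNMT3B replicate 1 and 3 and 8 without siDNMT3B replicate 2. The 1 and 12 in siDNMT3L became 2 and 5 without siNTC-1 replicate 2 and 1 and 6 without siDNMT3L replicate 2.

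Adding DNMT1 or DNMT3L siRNA to DNMT3A siRNA went with higher respiratory chain genes, and no gene of the set passed the threshold in the other direction. siD1+3A against siDNMT3A gave 13 higher and 0 lower, while 9.62% of all genes were called in either direction and 4.32% were higher. At an unadjusted p under 0.05 in limma the counts were 27 and 1. 3A+3L against siDNMT3A gave 15 and 0 (10.1% of all genes, 4.07% higher), with 19 and 4 at an unadjusted p under 0.05. Both comparisons share the siDNMT3A arrays. siDNMT3A lay at -16.4 and -15.4 on principal component 1, siD1+3A at -6.76 and -7.73 and 3A+3L at -4.85 and -8.20. Both additions thus went with a move toward siNTC-1 on the component, and addition and move cannot be told apart. The 13 became 4 without either siD1+3A array, 6 without siDNMT3A replicate 1 and 7 without siDNMT3A replicate 2, all higher, and the 15 became 9 without any 1 of their 4 arrays.

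NDUFB6 and NDUFA5 are accessory subunits of complex I. NDUFB6 read 8.82 and 9.06 in siDNMT3A, 9.52 and 9.41 in siD1+3A and 9.46 and 9.39 in 3A+3L. The differences were 0.53 ± 0.08 (adjusted p of limma = 0.000307) and 0.49 ± 0.08 (0.000498). NDUFA5 read 8.16 and 8.24 in siDNMT3A, 8.55 and 8.65 in siD1+3A and 8.58 and 8.62 in 3A+3L, with differences of 0.41 ± 0.06 (adjusted p of limma = 0.00031) and 0.40 ± 0.06 (0.00028). In both genes the siDNMT3A arrays were lower than every array of the combined groups.

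NDUFA2 was higher in siD1+3A than in siDNMT3A by 0.33 ± 0.05 (11.61 and 11.65 against 11.28 and 11.31, adjusted p of limma = 0.000336). COX7B, a small subunit of cytochrome c oxidase, was higher in 3A+3L by 0.64 ± 0.12 (10.77 and 10.51 against 9.87 and 10.14, adjusted p of limma = 0.00163). These calls held without any 1 of the 4 arrays.

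The same additions to 3A+3B gave fewer calls. 3A+3B lay at -14.6 and -15.9 on principal component 1, 3A+3B+3L at -4.39 and -3.80 and siD1+3A+3B at -7.73 and -9.49. The additions thus again went with a move toward siNTC-1, from which they cannot be told apart. DNMT3B was also less depleted after each addition, as given above. 3A+3B+3L against 3A+3B gave 6 higher and 0 lower (9.42% of all genes, 3.93% higher), with 19 and 0 at an unadjusted p under 0.05, and NDUFA5 rose from 8.23 and 8.17 to 8.52 and 8.57 (0.35 ± 0.06, adjusted p of limma = 0.000894). The 6 became 1 without 3A+3B replicate 1, 3 without 3A+3B replicate 2 and 2 without 3A+3B+3L replicate 1. siD1+3A+3B against 3A+3B gave 2 higher, NDUFA5 and COX7A2, and 0 lower (3.19% of all genes, 1.02% higher), with 8 and 2 at an unadjusted p under 0.05, and the 2 became 0 without any 1 of the 4 arrays. The difference between the effects on 3A+3B and on siDNMT3A passed for 0 of the 79 genes with either siRNA in limma (0.076% and 0.0326% of all genes). At an unadjusted p under 0.05 it was lower for 9 and higher for 0 with DNMT1 siRNA, and lower for 8 and higher for 2 with DNMT3L siRNA.

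In all 4 of these comparisons the ATF4 targets were lower: 17 of 20 in siD1+3A against siDNMT3A, 18 in 3A+3L against siDNMT3A, 18 in 3A+3B+3L against 3A+3B and 17 in siD1+3A+3B against 3A+3B. The part of this response in the respiratory chain values was not tested.

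Adding DNMT3A siRNA went with opposite changes on different backgrounds. The moves on principal component 1 were opposite too. siD1+3B lay at -3.81 and -3.37 and siD1+3A+3B at -7.73 and -9.49, farther from siNTC-1. 3B+3L lay at -20.2 and -17.6 and 3A+3B+3L at -4.39 and -3.80, nearer to siNTC-1. Addition and move cannot be told apart. DNMT3B was also less depleted after the addition on each background, as given above. siD1+3A+3B against siD1+3B gave 0 higher and 11 lower, beside 3.02% of all genes called in either direction and 1.68% lower, with 0 and 36 at an unadjusted p under 0.05 in limma. 3A+3B+3L against 3B+3L gave 10 higher and 0 lower (18.9% of all genes, 7.59% higher), with 19 and 2 at an unadjusted p under 0.05. The median difference was -0.13 in the first and 0.06 in the second. The 11 became 2 without siD1+3B replicate 1, 1 without siD1+3B replicate 2, 2 without siD1+3A+3B replicate 1 and 3 without siD1+3A+3B replicate 2, all lower. The 10 became 4, all higher, without 3A+3B+3L replicate 1.

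NDUFS4 read 10.87 and 10.88 in siD1+3B and 10.43 and 10.40 in siD1+3A+3B, a difference of -0.46 ± 0.07 (adjusted p of limma = 0.00161), with no overlap of the arrays. COX6B1 read 11.59 and 11.65 in 3B+3L and 11.95 and 11.92 in 3A+3B+3L, a difference of 0.32 ± 0.04 (adjusted p of limma = 6.25e-05). NDUFA2 rose from 11.31 and 11.22 to 11.58 and 11.58 (0.31 ± 0.05, adjusted p of limma = 0.000173). ATP5PF, a subunit of the stalk of ATP synthase, rose from 7.30 and 7.31 to 7.61 and 7.61 (0.31 ± 0.07, adjusted p of limma = 0.00548). The calls of these 4 genes held without any 1 of their 4 arrays.

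The difference between both effects of DNMT3A siRNA passed the threshold for 22 of the 79 genes, all in the direction of a lower effect on siD1+3B, while 14.8% of all genes passed in either direction and 6.37% in that one. Between 16 and 19 passed without any 1 of the 8 arrays. The ATF4 targets went the opposite way to the set in each comparison, with 13 of 20 higher in siD1+3A+3B against siD1+3B, and 1 higher and 18 lower in 3A+3B+3L against 3B+3L. Their part in the result was not tested.

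**Figure D5:**
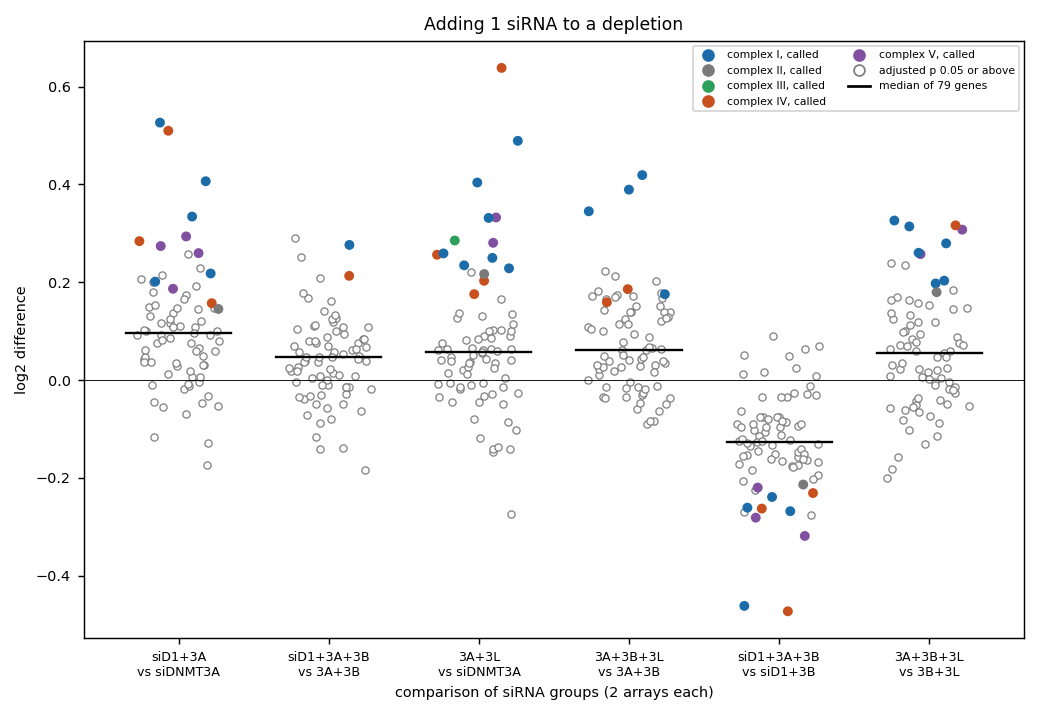
Log2 difference (y axis) of each of the 79 genes when 1 siRNA is added to a depletion, for 6 comparisons of groups of 2 arrays (x axis), with called genes filled and coloured by complex and the median of the 79 genes as a line. In the comparison of siD1+3A+3B with siD1+3B all 11 called genes lie below 0, and in the other 5 comparisons all called genes lie above 0.

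The single depletions on the same side of the split were also set against each other. siDNMT1 against siDNMT3L gave 8 higher and 2 lower (12.6% of all genes), siDNMT1 against siDNMT3B 5 and 6 (18.3%) and siDNMT3B against siDNMT3L 3 and 2 (10.8%). COX7C was lower in siDNMT1 than in siDNMT3L, where it read 10.94 and 10.92 (-0.55 ± 0.05, adjusted p of limma = 5.7e-07). It was also lower than in siDNMT3B, where it read 10.87 and 10.92 (-0.52 ± 0.05, adjusted p of limma = 9.01e-07). Both COX7C calls held without any 1 array. The 8 and 2 of siDNMT1 against siDNMT3L became 3 and 1 without siDNMT1 replicate 1, 0 and 2 without siDNMT1 replicate 2, 3 and 2 without siDNMT3L replicate 1 and 2 and 1 without siDNMT3L replicate 2. The 5 and 6 against siDNMT3B became 3 and 1 without siDNMT1 replicate 1, 0 and 3 without siDNMT1 replicate 2, 1 and 5 without siDNMT3B replicate 1 and 3 and 2 without siDNMT3B replicate 2. The side with more calls thus depended on single arrays in both comparisons. The 3 and 2 of siDNMT3B against siDNMT3L became 3 and 0 without siDNMT3B replicate 1, 2 and 1 without siDNMT3L replicate 2 and 0 and 0 without siDNMT3B replicate 2.

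Several subunits exist in more than 1 form, of which one is widely expressed and the other belongs to muscle, lung or testis. COX4I2, COX6A2, COX6B2, COX7A1, COX7B2 and COX8C were among the dimmest 40% of genes, and their group means lay within 4.64 to 4.97, 5.58 to 5.90, 3.85 to 4.11, 4.50 to 4.78, 4.47 to 4.71 and 4.18 to 4.52. None of these 6 was called in any of the 11 depletions by limma, nor at an unadjusted p under 0.05 against both controls. The group means of the widely expressed forms COX4I1 and COX6A1 ranged from 8.36 to 8.83 and from 11.7 to 12.2, both with the highest mean in siDNMT1. Of the genes for subunit c of ATP synthase, which encode the same mature protein, the group means ranged from 12.7 to 13.1 for ATP5MC1, 9.37 to 9.65 for ATP5MC2 and 7.30 to 7.73 for ATP5MC3. In complex II they ranged from 10.7 to 11.0 for SDHA, 11.9 to 12.1 for SDHC and 11.2 to 11.6 for SDHD.

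By Pearson correlation of the 13 group means with the median profile of the set, the most similar genes outside it were POP7 (r = 0.93), DCAF13 (0.92), ZNF224 (0.92), CCT3 (0.92) and TAF7 (0.92), given as a description over groups that share the split of the arrays.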

How the data were processed

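RNA of NCCIT cells in 13 siRNA groups of 2 was measured on 26 Affymetrix arrays. The authors' deposited table holds log2 expression values per transcript cluster, with 1 column per array. The log base was inferred from the values, and the submitters' processing notes name Partek. How background was corrected and arrays were normalized is not given in the sources used here. Of 33297 rows, 19460 carried 1 gene symbol in the platform annotation, 1754 several and 12083 none. The row with the highest mean was kept, which left 18417 genes, and 0 columns were unused. The 79 genes and the 13 other lists were chosen with earlier results of these data known.

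Group means were fitted with limma 3.58.1 in R 4.3.3 (residual degrees of freedom: 13), with Benjamini-Hochberg adjustment over 18417 genes and a threshold of 0.05. The fit was tested on simulated data. Named were up to 4 rises and 4 falls per comparison of 2 groups and up to 3 per depletion, the genes called in most depletions, the 6 with the smallest range and all isoform pairs, with COX5B in siDNMT3L added later. Of these 108 results, the 46 that held without any 1 array are described first, a choice made after the values were seen. Alternatives were quantile normalization, no dim genes, all rows, the mean of both controls, a replicate block and leaving out each array. The difference between replicate 1 and replicate 2 of a group was correlated over 78 pairs of groups. The correlation had a median of -0.002, ran from -0.26 to 0.19 and was above 0.1 in 9 pairs.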

Additional observations from a re-analysis of the deposited data

Results flagged for a closer look

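Adding DNMT3A siRNA to DNMT1 plus DNMT3B siRNA and adding it to DNMT3B plus DNMT3L siRNA gave different changes in 7 named genes, by an interaction term in limma. These 7 genes had been named for the largest called changes in one or the other of these additions. Their interaction p-values come from the same 8 arrays and are biased by that choice. The backgrounds also differ in place on principal component 1, and DNMT3B was less depleted after each addition, as given above. The levels of DNMT1 on the first background and of DNMT3L on the second were higher after the addition too. For COX6B1, a subunit of cytochrome c oxidase, the change was -0.23 on the first background and 0.32 on the second, a difference of -0.55 ± 0.06 (adjusted p = 9.99e-06). NDUFA2 changed by -0.27 and 0.31 (difference -0.58 ± 0.07, adjusted p of limma = 1.57e-05) and NDUFC1 by -0.17 and 0.33 (difference -0.50 ± 0.12, adjusted p of limma = 0.00722), both subunits of complex I. ATP5PF, of the stalk of ATP synthase, changed by -0.28 and 0.31 (difference -0.59 ± 0.10, adjusted p of limma = 0.000699). These 4 differences passed the threshold without any 1 of the 8 arrays.

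COX7B changed by -0.47 and 0.17 (difference -0.64 ± 0.16, adjusted p of limma = 0.0118), which did not pass without siD1+3A+3B replicate 2 (-0.47). NDUFS4 changed by -0.46 and -0.05 (difference -0.41 ± 0.10, adjusted p of limma = 0.00988), which did not pass without 3A+3B+3L replicate 1 (-0.33). ATP5ME changed by -0.32 and 0.11 (difference -0.43 ± 0.11, adjusted p of limma = 0.0106), which did not pass without siD1+3B replicate 1 (-0.37) or 3B+3L replicate 2 (-0.37).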

How the results depend on the processing

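The difference of none of the 108 named results changed sign under these alternatives, but the side with more calls did turn in some counts. Leaving out single arrays turned it in siDNMT1 and 3A+3L against both controls and in siDNMT1 against siDNMT3L and siDNMT3B, as given above. Against the mean of both controls it turned in siDNMT3L (18 higher and 16 lower, beside 1 and 5) and 3A+3B+3L (12 and 16, beside 5 and 2), and without the dimmest 40% of genes in siDNMT1 against siDNMT3B (9 and 7, beside 5 and 6). With quantile normalization the count of called genes was 5 in siD1+3A+3B against 3A+3B, 16 in 3A+3B+3L against 3B+3L and 8 in siDNMT3B against siDNMT3L, beside 2, 10 and 5, and 7 of 108 named results lost their call. Without the dimmest 40% of genes, which leaves 73 genes of the set and fewer tests, the same 3 counts were 5, 16 and 11, and those of siD1+3A+3B against both controls, 3A+3B+3L against both controls and siD1+3A+3B against siD1+3B were 7, 11 and 18, beside 4, 7 and 11. Against the mean of both controls, which asks less than a call against each, the counts were 33 in siDNMT1, 31 in siDNMT3A, 36 in siDNMT3B, 34 in siDNMT3L, 32 in siD1+3A, 35 in siD1+3B, 24 in siD1+3A+3B, 30 in 3A+3B, 29 in 3A+3L, 27 in 3B+3L and 28 in 3A+3B+3L. With the replicate number as a block, all 21 counts stayed within 1.5 times (56 in siNTC-2 against siNTC-1, 12 in siD1+3A against siDNMT3A) and no named result lost its call. The same held with all rows of 1 symbol in the fit.

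Leaving out 1 array at a time gave 49 to 54 calls in siNTC-2 against siNTC-1. Against both controls it gave 4 to 7 in siDNMT1, 2 to 4 in siDNMT3A, 3 to 6 in siDNMT3B, 4 to 6 in siDNMT3L, 5 to 9 in siD1+3A, 7 to 12 in siD1+3B, 1 to 3 in siD1+3A+3B, 3 to 4 in 3A+3B, 5 to 9 in 3A+3L, 1 to 2 in 3B+3L and 4 to 7 in 3A+3B+3L. Between depletions it gave 4 to 7 in siD1+3A against siDNMT3A, 0 to 0 in siD1+3A+3B against 3A+3B, 9 to 9 in 3A+3L against siDNMT3A, 1 to 4 in 3A+3B+3L against 3A+3B, 1 to 3 in siD1+3A+3B against siD1+3B, 4 to 8 in 3A+3B+3L against 3B+3L, 2 to 5 in siDNMT1 against siDNMT3L, 3 to 6 in siDNMT1 against siDNMT3B and 0 to 4 in siDNMT3B against siDNMT3L. A group left with 1 array is assumed to vary like the others. The cause of the moved counts was not tested beyond the smaller number of arrays or tests.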

Other observations

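The genes of the mitochondrial ribosome, which makes the subunits encoded by mitochondrial DNA, passed the threshold in both directions in 3 of 6 additions and in 1 direction in the other 3. Of 74 such genes, 9 were higher and 0 lower in siD1+3A against siDNMT3A, 11 and 3 in 3A+3L against siDNMT3A, 9 and 3 in 3A+3B+3L against 3A+3B, 0 and 3 in siD1+3A+3B against 3A+3B, 0 and 9 in siD1+3A+3B against siD1+3B, and 12 and 10 in 3A+3B+3L against 3B+3L. Of all genes, 9.62%, 10.1%, 9.42%, 3.19%, 3.02% and 18.9% were called in either direction in these 6 comparisons, in the same order. In the control comparison the most significant falls were in MRPL28 (-1.07 ± 0.05, adjusted p of limma = 5.59e-12), MRPS12 (-1.19 ± 0.06, adjusted p of limma = 3.74e-11) and MRPL21 (-1.05 ± 0.07, adjusted p of limma = 1.94e-09).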
